A study of Mus musculus with 28 samples.

Results

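The genes described here were 10 transcription factor genes that maintain pluripotency in mouse embryonic stem (ES) cells: the core factors Pou5f1 (Oct4), Nanog and Sox2, and the naive-state factors Zfp42 (Rex1), Klf2, Klf4, Klf5, Esrrb, Tbx3 and Tfcp2l1. They were taken by gene symbol from 19938 gene symbols on the array. Each of the 10 had 1 probe set, and all 10 lay above the expression filter, so no member was lost. The study profiled mRNA with Affymetrix Mouse Gene ST arrays, 28 in all, to ask what hotspot mutations of DICER1 do. A Dicer wild-type line (n = 2 arrays) and a Dicer-null line (Dicer-/-, n = 3) carried no transgene. Every other group was made in Dicer-null cells. These cells carried an eGFP vector (n = 3), wild-type DICER1 (n = 6), or DICER1 with the mutation D1709A (n = 4), E1705K (n = 3), D1810Y (n = 3), D1709N (n = 2) or E1813Q (n = 2). The transgenes were carried by the ENvA vector, except that D1709N, E1813Q and 2 of the 6 arrays of wild-type DICER1 used PGKnvA. Cells were collected in log-phase growth. The labels name 1 parental line per genotype, do not say how many clones were used, and do not say whether replicates were separate cultures. The p-values thus rest on array-to-array spread that may be technical.

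Pou5f1, Sox2 and Nanog bind many of the same enhancers and hold one another's genes active, which keeps ES cells undifferentiated. The naive factors connect this core to signals in the medium. Leukaemia inhibitory factor (LIF) acts through STAT3 on Klf4 and Tfcp2l1, and through PI3K on Tbx3. WNT signals relieve repression of Esrrb and Tfcp2l1 by Tcf7l1, while FGF and ERK signals push cells away from the naive state. Klf2, Klf4 and Klf5 are zinc-finger factors with overlapping functions, and Zfp42 is a marker of the naive state. DICER1 is the ribonuclease that cuts microRNA (miRNA) hairpins into mature miRNAs. Its RNase IIIb domain, which holds the mutated residues, makes the cut that frees the 5-prime strand.

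Promoter sequence is shown for 4 members. Those of Nanog, Sox2 and Zfp42 hold the octamer core, to which Pou5f1 binds, and Klf2 had the largest change of any member between transgenes. Each stretch is the 200 bases before an annotated start (RefSeq, GRCm38.p6), written 5′ to 3′ on the gene's strand. Capitals mark the octamer core (TTTGCAT) and the SOX core (CATTGT), on either strand.
Nanog (chr6:122707289-122707488, plus strand): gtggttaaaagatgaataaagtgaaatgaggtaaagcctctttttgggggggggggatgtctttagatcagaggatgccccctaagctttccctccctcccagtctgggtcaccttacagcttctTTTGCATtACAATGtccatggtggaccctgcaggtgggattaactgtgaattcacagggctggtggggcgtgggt
Sox2 (chr3:34649795-34649994, plus strand): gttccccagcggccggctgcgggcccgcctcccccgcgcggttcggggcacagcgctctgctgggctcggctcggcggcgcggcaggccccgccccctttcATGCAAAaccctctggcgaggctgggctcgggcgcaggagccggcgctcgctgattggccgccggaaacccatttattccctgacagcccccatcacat
Zfp42 (chr8:43307010-43307209, minus strand): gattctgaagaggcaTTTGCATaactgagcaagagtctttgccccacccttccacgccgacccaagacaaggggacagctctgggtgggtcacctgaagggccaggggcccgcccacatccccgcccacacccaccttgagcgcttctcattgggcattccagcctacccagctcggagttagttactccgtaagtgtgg
Klf2 (chr8:72318862-72319061, plus strand): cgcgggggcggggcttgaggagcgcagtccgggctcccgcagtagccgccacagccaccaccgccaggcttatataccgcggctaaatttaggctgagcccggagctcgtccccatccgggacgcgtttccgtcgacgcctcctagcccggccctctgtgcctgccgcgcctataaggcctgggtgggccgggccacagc
In the Nanog stretch the octamer core begins 75 bases before the start and the SOX core 67 bases before it, with no overlap between them. The octamer core of Sox2 begins at 99 bases and that of Zfp42 at 185 bases before the start. The reference table held 11 promoters of 8 members, which run from 250 bases before to 50 bases after the start, and none for Tbx3 or Klf5. The octamer core was in the windows of 3 of these 8 members and in 4.63% of 32851 mouse promoters of the same length. The SOX core was in those of 3 members and in 12.6% of all promoters, and the KLF core (CACCC) in those of 6 members and in 57.5% of all promoters. A member was counted if any of its windows matched, while the percentages are over single promoters. Counts and percentages are therefore in unlike units. These are letter matches, and no binding was measured here.

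Several miRNAs have been reported to act on these genes. In mouse ES cells miR-134-5p, miR-296-5p and miR-470-5p were reported to target coding sequence of Nanog, Pou5f1 or Sox2, and miR-92a-3p was reported to target KLF2 in endothelial cells. They are shown because the first 3 come from the 5-prime arm, the strand that the RNase IIIb cut frees, and the last from the 3-prime arm. Capitals mark the seed, bases 2 to 8, and no 2 of the 4 share one.
mmu-miR-134-5p: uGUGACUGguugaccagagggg
mmu-miR-296-5p: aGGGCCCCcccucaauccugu
mmu-miR-470-5p: uUCUUGGAcuggcacuggugagu
mmu-miR-92a-3p: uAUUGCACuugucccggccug
Levels of these mature miRNAs were not analysed here.

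All values below are log2 expression values, so a difference of 1 is a doubling. The targeted gene, Dicer1, was highest in the Dicer wild-type line at 10.68 ± 0.05 (SD, n = 2), and the 8 other groups had means between 8.91 and 9.39. The sources used here do not say whether its probe set reads the transgene. The 7 ES cell markers, among which Pou5f1, Nanog, Sox2 and Zfp42 are members, averaged 12.26 to 12.48 on every array. The mean of 12 fibroblast or feeder markers lay between 6.49 and 7.02 on every array, near the filter level of 6.42, and 6 to 8 of the 12 were above that level by group. The mean of 7 trophoblast markers lay between 7.55 and 8.29, and that of 8 extraembryonic endoderm markers between 6.80 and 7.44. Mesoderm markers averaged 6.66 to 7.01 and neuroectoderm markers 6.97 to 7.60. The deposited values also hold exact relations between arrays. The fourth array of D1709A and that of wild-type DICER1 deviated from arrays 1 to 3 of their groups by equal and opposite amounts in every probe set, within 1.33e-04. The wild-type DICER1 means of the 2 vectors were equal within 7.5e-05. Residuals are therefore fewer than the 18 degrees of freedom of the model, and its p-values are approximate.

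**Figure D1:**
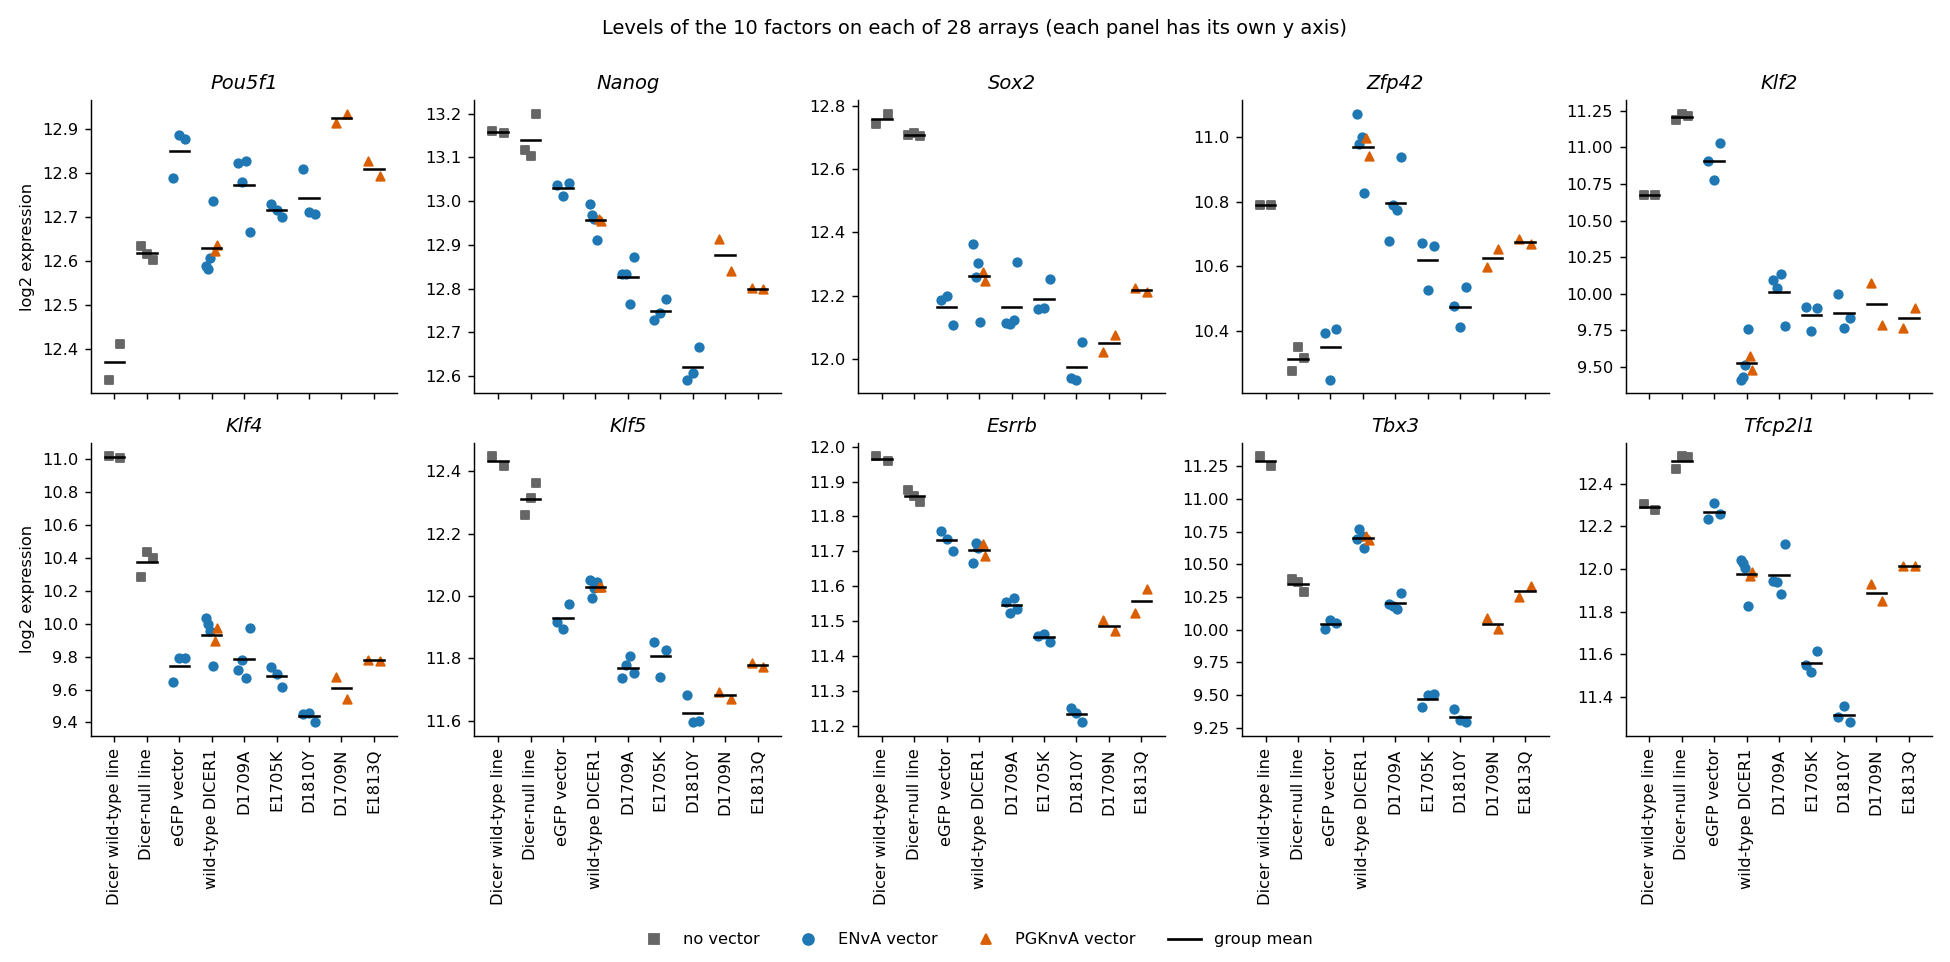
Log2 expression of the 10 factors (1 panel each, with its own y axis) on each of the 28 arrays, by group. Points are arrays, their colour and shape give the vector, and the black line is the group mean. Tbx3 runs from 11.29 in the Dicer wild-type line to 9.33 in D1810Y, while Pou5f1 is lowest in the Dicer wild-type line.

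The core factors moved over narrower ranges than Tbx3, Klf2, Klf4 and Tfcp2l1. Their group means spanned 0.55 for Pou5f1, 0.54 for Nanog and 0.78 for Sox2, beside a median span of 0.58 over the 13956 genes tested. Pou5f1, the POU-domain factor without which pluripotency is lost (probe set 10444853, chr17:35506032-35510777), was lowest in the Dicer wild-type line, at 12.33 and 12.41. It read 12.63, 12.62 and 12.60 in the Dicer-null line and 12.79, 12.88 and 12.88 with eGFP. With wild-type DICER1 its lowest, median and highest arrays were 12.58, 12.61 and 12.74. The Dicer wild-type arrays lay apart from all others, while wild-type DICER1 overlapped the Dicer-null line and E1705K, its neighbours in the order. The mutants ran from 12.72 ± 0.01 (SD, n = 3) in E1705K to 12.92 ± 0.01 (n = 2) in D1709N, the highest group.

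Nanog, the homeobox factor that stabilises self-renewal (probe set 10541524, chr6:122707489-122714633), followed another order. It read 13.16 and 13.16 in the Dicer wild-type line and 13.12, 13.10 and 13.20 in the Dicer-null line, which overlapped. It read 13.04, 13.01 and 13.04 with eGFP, below both, and 12.91, 12.96 and 12.99 as lowest, median and highest with wild-type DICER1. Mutant group means followed from 12.88 ± 0.05 (n = 2) in D1709N down to 12.62 ± 0.04 (n = 3) in D1810Y. D1810Y, at 12.59, 12.61 and 12.67, did not overlap any other group.

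Sox2, the HMG-box partner of Pou5f1 (probe set 10491477, chr3:34649995-34652461), separated the parental lines from all transgenic cells. It read 12.74 and 12.78 in the Dicer wild-type line and 12.71, 12.72 and 12.71 in the Dicer-null line. The 23 transgenic arrays lay lower, with group means from 12.26 ± 0.08 (n = 6) for wild-type DICER1 to 11.97 ± 0.07 (n = 3) for D1810Y. Most neighbouring transgenic groups overlapped, and only D1709A and D1709N, at adjacent places in the order, did not.

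Among the naive factors, Tbx3, a T-box factor that can sustain self-renewal (probe set 10525016, chr5:119670534-119684724), had the widest range. Its group means spanned 1.96, a range larger than that of 97.0% of genes tested. It read 11.32 and 11.25 in the Dicer wild-type line. With wild-type DICER1 its lowest, median and highest arrays were 10.63, 10.71 and 10.77, and no other group lay between these and the Dicer wild-type line. The Dicer-null line read 10.39, 10.36 and 10.29, E1813Q 10.25 and 10.34, and D1709A 10.20, 10.18, 10.16 and 10.28, each overlapping the next. D1709N (10.090 and 10.004) and eGFP (10.01, 10.07 and 10.05) overlapped each other. E1705K at 9.41, 9.50 and 9.51 and D1810Y at 9.39, 9.31 and 9.29 lay below all other arrays.

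Klf2, a Krüppel-like factor of the naive state (probe set 10572800, chr8:72319062-72321654), had group means that spanned 1.68. It was highest in the Dicer-null line, at 11.19, 11.23 and 11.21, followed by eGFP at 10.91, 10.78 and 11.03 and by the Dicer wild-type line at 10.68 and 10.68. It was lowest with wild-type DICER1, at 9.41, 9.49 and 9.76 as lowest, median and highest. The 5 mutant means lay between 9.83 ± 0.10 (n = 2) for E1813Q and 10.01 ± 0.16 (n = 4) for D1709A, and neighbouring mutants overlapped. No array with a DICER1 transgene, wild-type or mutant, reached the level of any array without one.

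Klf4, the Krüppel-like factor downstream of STAT3 (probe set 10513008, chr4:55527137-55532475), spanned 1.58 and separated the parental lines. It read 11.02 and 11.01 in the Dicer wild-type line and 10.28, 10.44 and 10.40 in the Dicer-null line. In transgenic cells it was lower still, from 9.93 ± 0.11 (n = 6) for wild-type DICER1 to 9.44 ± 0.03 (n = 3) for D1810Y, which overlapped no other group. Klf5, the Krüppel-like factor also needed in the early embryo (probe set 10416777, chr14:99298691-99313412), had much the same order with a smaller span of 0.81. It read 12.43 ± 0.02 (n = 2) in the Dicer wild-type line, 12.31 ± 0.05 (n = 3) in the Dicer-null line, 12.03 ± 0.02 (n = 6) with wild-type DICER1 and 11.93 ± 0.04 (n = 3) with eGFP. All mutant means were below these, from 11.81 ± 0.06 (n = 3) in E1705K to 11.63 ± 0.05 (n = 3) in D1810Y.

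Esrrb, the orphan nuclear receptor downstream of WNT and Tcf7l1 (probe set 10397440, chr12:86361117-86521628), had arrays that were close together within each group. It read 11.97 ± 0.01 (n = 2) in the Dicer wild-type line, 11.86 ± 0.02 (n = 3) in the Dicer-null line, 11.73 ± 0.03 (n = 3) with eGFP and 11.70 ± 0.02 (n = 6) with wild-type DICER1. The last 2 groups overlapped. D1810Y, at 11.25, 11.24 and 11.21, was again the lowest and stood apart from E1705K at 11.46, 11.46 and 11.44.

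Tfcp2l1, a LIF and WNT target (probe set 10349295, chr1:118627923-118685168), was highest in the Dicer-null line, at 12.47, 12.53 and 12.53. The Dicer wild-type line read 12.30 and 12.28 and overlapped eGFP at 12.23, 12.31 and 12.26. E1813Q, wild-type DICER1, D1709A and D1709N formed a run of overlapping groups from 12.02 ± 0.0008 (n = 2) to 11.89 ± 0.06 (n = 2). E1705K (11.55, 11.52 and 11.61) and D1810Y (11.31, 11.36 and 11.28) lay below it. Zfp42, the zinc-finger marker of the naive state (probe set 10578401, chr8:43295067-43307009), differed from all of these. It was highest with wild-type DICER1, at 10.83, 10.99 and 11.07 as lowest, median and highest. It was lowest in the cells with no DICER1, at 10.28, 10.35 and 10.32 in the Dicer-null line and 10.39, 10.25 and 10.40 with eGFP.

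Loss of Dicer was examined between the parental lines. Tbx3, Klf4 and Zfp42 were lower in the cells without Dicer, and Klf2 was higher. Tbx3 fell by 0.94 (SE, 0.0516, adjusted p = 4.06e-14), or 1.92-fold, Klf4 fell by 0.64 (adjusted p = 1.79e-07) and Zfp42 fell by 0.48 (adjusted p = 1.22e-06). Klf2 rose by 0.53 (SE, 0.104, adjusted p = 9.22e-05), Pou5f1 by 0.24 and Tfcp2l1 by 0.22. Klf5 and Esrrb fell by 0.12 and 0.11, and these 2 calls were lost when each array was centred on its median (adjusted p = 0.438 and 0.499). The Klf5 call was also lost without array 1 of the Dicer-null line (adjusted p = 0.0557) or array 1 of the Dicer wild-type line (0.0805). Nanog differed by -0.02 (95% interval, -0.09 to 0.05, adjusted p = 0.696) and Sox2 by -0.05 (-0.17 to 0.07, adjusted p = 0.491), and neither was called. In all, 3 members were called higher and 5 lower, in a comparison that called 30.7% of tested genes higher and 27.2% lower. With arrays centred, the share of calls that were higher moved from 53.0% to 64.4% over all genes, and the median of all genes from 0.01 to 0.09. With 1 line named per genotype, other differences between the lines cannot be told apart from the loss of Dicer. In these bulk samples, fewer cells with a transcript and less of it per cell cannot be told apart either.

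Adding the eGFP vector to Dicer-null cells went with a fall of most members. Klf4 fell by 0.63 (SE, 0.0719, adjusted p = 6.63e-08), Sox2 fell by 0.55 (SE, 0.0513, adjusted p = 2.69e-09) and Klf5 fell by 0.39 (adjusted p = 7.26e-10). Klf2 and Tbx3 fell by 0.31 and 0.30, Tfcp2l1 by 0.24, Esrrb by 0.13 and Nanog by 0.11, while Pou5f1 rose by 0.23. Zfp42 changed by 0.03 (95% interval, -0.09 to 0.16) and was not called. This made 1 member higher and 8 lower, against 20.2% of all tested genes higher and 27.4% lower, and the median member fell by 0.27 where the median gene fell by 0.03. With arrays centred, the share of all calls that were higher moved from 42.5% to 30.5%, and the members' counts stayed at 1 and 8. The Klf2 call was lost without eGFP array 2 (adjusted p = 0.0567). These cells differ from the parental line in vector and handling as well as in eGFP, so the transgenic groups below are compared with the eGFP group and not with the parental line.

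Wild-type DICER1 put back into Dicer-null cells went with opposite changes in different members. Klf2 fell by 1.38 (SE, 0.0872, adjusted p = 8.86e-13), a 2.6-fold difference, and Tfcp2l1 and Pou5f1 fell by 0.29 and 0.22. Tbx3 rose by 0.66 (SE, 0.0432, adjusted p = 1.60e-12), Zfp42 by 0.62 (SE, 0.0566, adjusted p = 7.46e-10), Klf4 by 0.19 and Klf5 by 0.10. Nanog fell by 0.07 (adjusted p = 0.0300). Sox2 differed by 0.10 (95% interval, -0.00 to 0.20) and Esrrb by -0.03 (-0.08 to 0.03), and neither was called. The Sox2 difference was 0.14 and called in ENvA arrays numbered 1 to 3 (adjusted p = 8.71e-04), without both arrays numbered 4 (2.24e-04) and without wild-type DICER1 array 4 (0.00479). It was also called, at 0.10, without D1709A array 4 (0.0391). Thus 4 members were higher and 4 lower, against 30.8% and 28.7% of all tested genes, which is near the background share. The Nanog call did not survive a fit with the replicate number as a block (adjusted p = 0.0556), the fit with no variance trend (0.0859), the omission of both arrays numbered 4 (0.0657), or that of eGFP array 1 (0.0810), eGFP array 3 (0.0873) or wild-type DICER1 array 4 (0.0964) alone. The Klf4 call was lost without eGFP array 1 (0.116) or wild-type DICER1 array 1 (0.0627), and the Klf5 call when arrays were centred (0.107). Markers of other cell types moved in the same comparison: 5 of 6 tested trophoblast markers were higher and 0 lower (median 0.44), 4 of 6 extraembryonic endoderm markers were higher and 0 lower (median 0.40), and 4 of 7 fibroblast or feeder markers were higher and 1 lower (median 0.35). Their part in the members' changes was not tested.

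All 10 members were called between the cells with wild-type DICER1 and the Dicer wild-type line. Relative to that line, Klf2 was lower by 1.15 (SE, 0.0988, adjusted p = 3.84e-10), Klf4 by 1.08 (SE, 0.0762, adjusted p = 1.06e-11), Tbx3 by 0.59 and Sox2 by 0.50. Klf5, Tfcp2l1, Esrrb and Nanog were lower by 0.40, 0.31, 0.26 and 0.20. Pou5f1 was higher by 0.26, and Zfp42 by 0.18 (adjusted p = 0.0201), a call lost with the replicate number as a block (0.0606) or without wild-type DICER1 array 1 (0.0663) or either Dicer wild-type array (0.0939 and 0.0886). That is 2 members higher and 8 lower, against 28.1% and 24.8% of all tested genes. This comparison also holds the vector and the difference between the parental lines. In it 4 of 6 trophoblast markers were higher and 2 lower, and 4 of 7 fibroblast or feeder markers were higher and 1 lower.

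**Figure D2:**
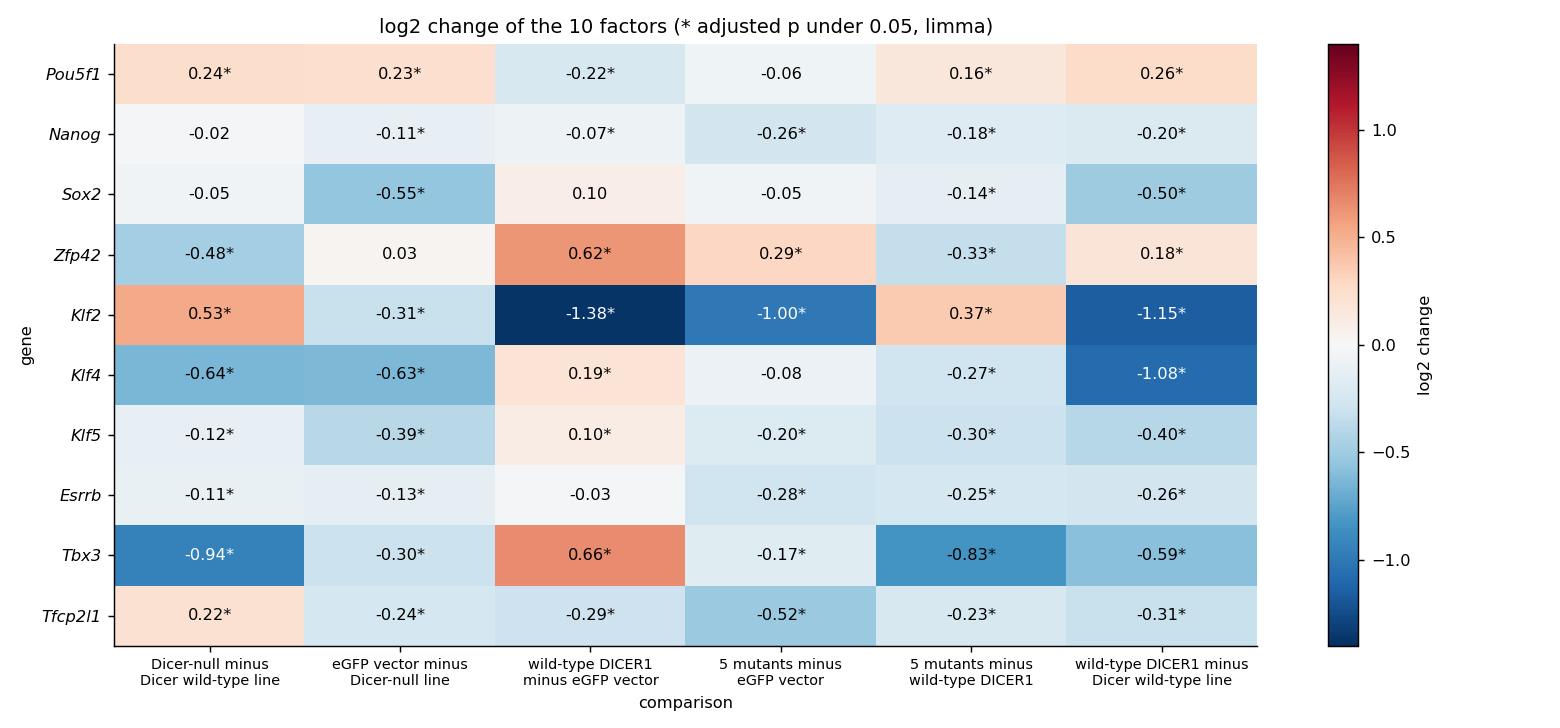
Log2 change of each of the 10 factors (rows) in 6 comparisons (columns). Red is higher, blue is lower in the group named first, and an asterisk marks an adjusted p under 0.05 in limma. Klf2 shows the deepest fall, 1.38, with wild-type DICER1 against eGFP, and Tbx3 is 0.83 lower in the mutants than with wild-type DICER1.

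The 5 hotspot mutants, averaged with equal weights, were then set against the eGFP vector. Klf2 fell by 1.005 (SE, 0.0831, adjusted p = 1.88e-10) and Tfcp2l1 fell by 0.52 (SE, 0.0450, adjusted p = 4.89e-10). Esrrb, Nanog, Klf5 and Tbx3 fell by 0.28, 0.26, 0.20 and 0.17, and Zfp42 rose by 0.29 (adjusted p = 6.48e-05). The Tbx3 average joined mutants on both sides of eGFP (mean 10.04). All arrays of E1813Q (mean 10.29) and D1709A (10.20) lay above all eGFP arrays, and D1709N (10.05) overlapped them. Only E1705K (9.47) and D1810Y (9.33) lay below. Pou5f1, Sox2 and Klf4 were not called, at -0.06, -0.05 and -0.08. So 1 member was higher and 6 lower, against 29.3% and 23.8% of all tested genes. The eGFP group is in the ENvA vector only, while D1709N and E1813Q are in PGKnvA. Within ENvA arrays numbered 1 to 3, with 3 of the mutants, all 10 members were called, 1 higher and 9 lower. There Pou5f1 was -0.09 (adjusted p = 0.00129), Sox2 -0.07 (0.0339), Klf4 -0.13 (0.00398) and Tbx3 -0.38 (2.03e-10). Over all ENvA arrays Pou5f1 was -0.11 and called (0.0144), Tbx3 was -0.37 (2.28e-08), and Sox2 (0.315) and Klf4 (0.141) were not called. All 6 tested trophoblast markers were higher in the mutants than with eGFP (median 0.79), and 2 of 6 extraembryonic endoderm markers were higher and 0 lower. Wild-type DICER1 and the mutants were both compared with the same 3 eGFP arrays. Side by side, Klf2 was -1.38 with wild-type DICER1 and -1.005 with the mutants, Zfp42 0.62 and 0.29, and Tbx3 0.66 and -0.17. Within ENvA arrays numbered 1 to 3 the mutant values were -0.97 for Klf2, 0.26 for Zfp42 and -0.38 for Tbx3. That Tbx3 value averages D1709A, which lay above eGFP, with E1705K and D1810Y, which lay below it.

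The direct comparison of the mutants with wild-type DICER1 called all 10 members. With the model's PGKnvA term, ENvA mutants were compared with the 4 ENvA arrays of wild-type DICER1. D1709N and E1813Q, with 2 arrays each, were compared with its 2 PGKnvA arrays. The wild-type DICER1 means of both vectors were equal within 7.5e-05, so the term made almost no adjustment. Tbx3 was lower by 0.83 (SE, 0.0281, adjusted p = 5.92e-18), a 1.78-fold difference, and was the only member beyond 1.5-fold. Zfp42 was lower by 0.33 (SE, 0.0368), Klf5 by 0.30 (0.0205), Klf4 by 0.27 (0.0437), Esrrb by 0.25 (0.0167), Tfcp2l1 by 0.23 (0.0307), Nanog by 0.18 (0.0184) and Sox2 by 0.14 (0.0312). Klf2 was higher by 0.37 (SE, 0.0567, adjusted p = 3.49e-06) and Pou5f1 by 0.16 (SE, 0.0249, adjusted p = 3.28e-06). The other adjusted p-values lay between 2.89e-12 for Esrrb and 3.37e-04 for Sox2. So 2 members were higher and 8 lower, against 32.3% and 27.7% of all tested genes, and the median member changed by -0.24 where the median gene changed by 0.01. In Klf5, Esrrb and Tbx3, all 14 mutant arrays lay below all 6 wild-type DICER1 arrays. Over all tested genes this held for 8.05%, and for 8.97% all mutant arrays lay above. In the other 7 members the arrays overlapped.

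Within each vector all 10 members had the same direction as in the comparison over both. In ENvA arrays numbered 1 to 3, the mutants differed from wild-type DICER1 by -1.07 for Tbx3, 0.48 for Klf2 and -0.43 for Tfcp2l1. In PGKnvA arrays the values were -0.53 for Tbx3, 0.35 for Klf2 and -0.03 for Tfcp2l1, and the last was not called (adjusted p = 0.570). The fall of Tfcp2l1 was largest in E1705K and D1810Y, both in the ENvA vector, and over all arrays it was called only in these mutants. In arrays 1 to 3 it was -0.10 in D1709A. Without both arrays numbered 4, Tfcp2l1 was called lower in D1709A and D1709N too. The ENvA and PGKnvA sets were each compared with wild-type DICER1 in the same vector, but they hold different mutants. An effect of the vector on a mutant's change thus cannot be told apart from a difference between mutations.

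Among the mutants, D1810Y and E1705K had the lowest Tbx3 and Tfcp2l1. Against wild-type DICER1, Tbx3 was lower by 1.37 in D1810Y (SE, 0.0432), 1.23 in E1705K (0.0432), 0.66 in D1709N (0.0565), 0.50 in D1709A (0.0400) and 0.41 in E1813Q (0.0565). Tfcp2l1 was lower by 0.66 in D1810Y (SE, 0.0472) and by 0.42 in E1705K (0.0472). It was not called in D1709N (-0.09, 95% interval -0.22 to 0.04), D1709A (-0.01, -0.10 to 0.08) or E1813Q (0.04, -0.09 to 0.17). A test of differences among the 5 mutants called 8 members, with adjusted p of 4.69e-13 for Tbx3, 1.45e-09 for Tfcp2l1, 2.53e-08 for Esrrb and 3.57e-05 for Nanog. It called 43.5% of all tested genes. It did not call Pou5f1 (adjusted p = 0.0663) or Klf2 (adjusted p = 0.396). It called 9 members without the vector term and with the replicate number as a block, and 10 without both arrays numbered 4.

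D1810Y departed from wild-type DICER1 in all 10 members. It had 2 members higher and 8 lower (all genes, 28.5% and 25.2%), and its median member changed by -0.44. Esrrb was lower by 0.47 (SE, 0.0256, adjusted p = 1.96e-13), Klf4 and Zfp42 by 0.50 each, Klf5 by 0.40, Nanog by 0.34 and Sox2 by 0.29. Its rise of Pou5f1, 0.11, was lost without D1810Y array 1 (adjusted p = 0.122) or wild-type DICER1 array 2 (0.0510). D1810Y had the lowest mean of the 9 groups in 7 members, namely Nanog, Sox2, Klf4, Klf5, Esrrb, Tbx3 and Tfcp2l1. How many of all tested genes were lowest in D1810Y was not counted. Group means of these members ran together, so the 7 are not separate observations. In Sox2 and Klf5 the D1810Y arrays overlapped those of D1709N.

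E1705K had 1 member higher and 7 lower (all genes, 27.3% and 20.7%). Beyond Tbx3 and Tfcp2l1, Zfp42 was lower by 0.35, and Klf4 and Esrrb by 0.25 each. Klf5 and Nanog were lower by 0.22 and 0.21, and Klf2 was higher by 0.33. D1709A had 2 higher and 5 lower (24.1% and 21.7%), with Klf2 0.48 higher, Klf5 0.26 lower and Zfp42 0.17 lower. D1709N had 2 higher and 6 lower (21.5% and 18.5%), with Pou5f1 0.29 higher and Klf5, Zfp42 and Klf4 lower by 0.35, 0.34 and 0.32. E1813Q had 2 higher and 5 lower (21.1% and 19.5%), with Zfp42 0.29 lower, Klf5 0.25 lower and Klf2 0.31 higher.

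Some calls in the smaller groups rested on 1 array. In D1709N, the Klf2 change moved from 0.40 to 0.26 without array 1 (adjusted p = 0.148) and was also lost without wild-type DICER1 array 6 (0.0633). The Sox2 call there was lost without D1709N array 1 (0.0765) or wild-type DICER1 array 5 (0.0635), and the Klf4 call without D1709N array 2 (0.0716) or wild-type DICER1 array 6 (0.0549). In E1813Q, the Klf2 call was lost without E1813Q array 2 (0.216), wild-type DICER1 array 5 (0.0616) or 6 (0.186), and with arrays centred (0.0734). Every fit used 1 estimate of the spread per gene, shared by all groups. The spread of groups with 2 arrays, or with 1 array left, was thus assumed to equal that of the other groups.

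**Figure D3:**
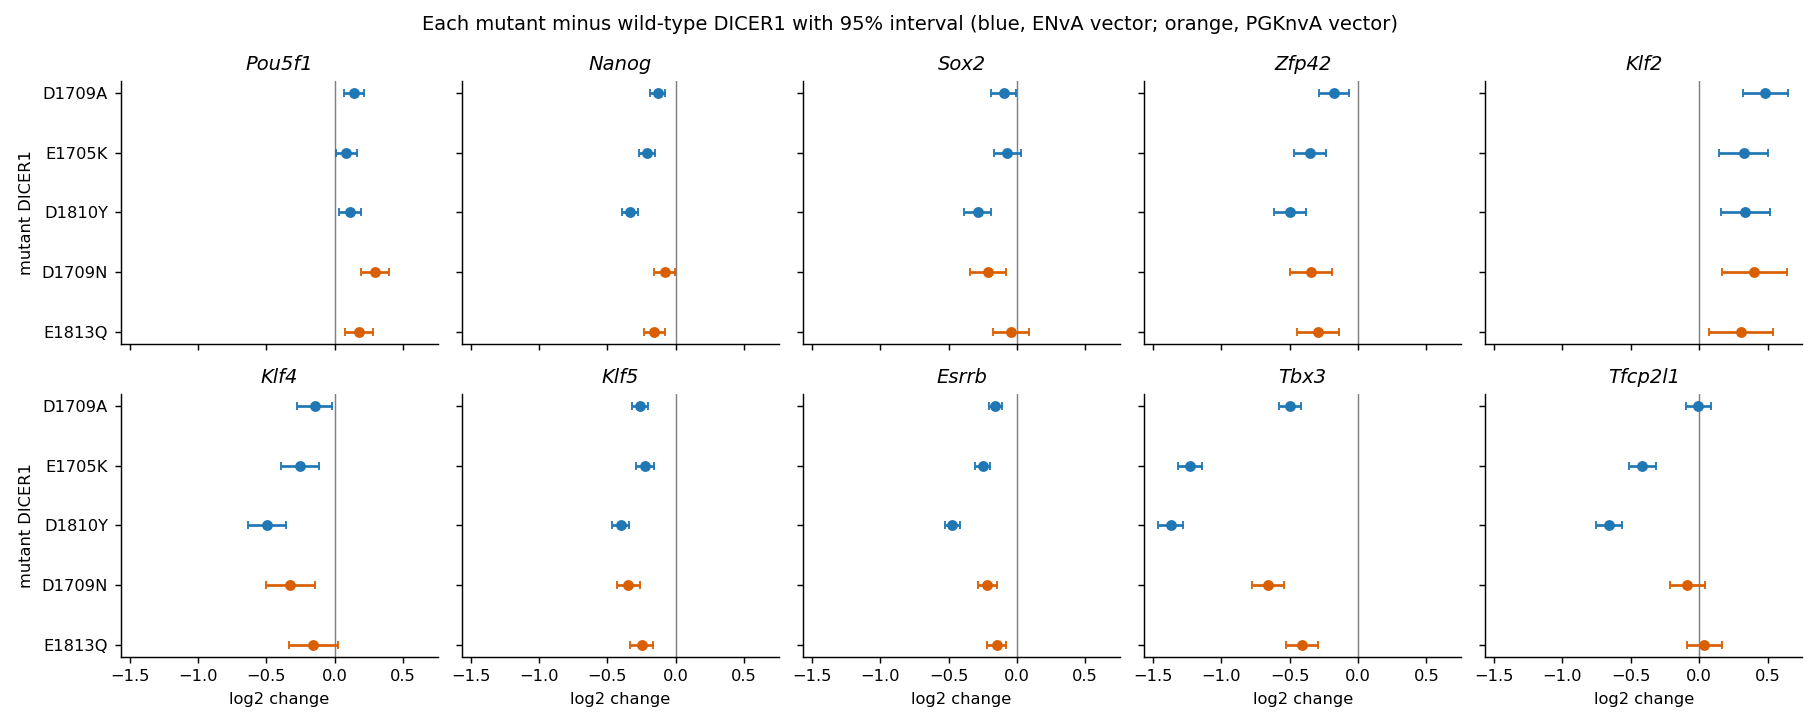
Change of each factor (panels) in each mutant relative to wild-type DICER1, on the log2 scale. Points are limma estimates, bars are 95% intervals, and colour gives the mutant's vector. Tbx3 is 1.37 lower in D1810Y and 1.23 lower in E1705K, while the points of Pou5f1 and Klf2 lie to the right of 0 in all 5 mutants, although Pou5f1 was not called in E1705K.

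The arrays numbered 4 exist only for D1709A and wild-type DICER1, and their mirrored deviations bear on this pair. In arrays 1 to 3, D1709A differed from wild-type DICER1 by 0.64 in Klf2, 0.22 in Pou5f1, -0.19 in Sox2, -0.27 in Zfp42, -0.27 in Klf4 and -0.10 in Tfcp2l1. Between the 2 arrays numbered 4, the differences were 0.02, -0.07, 0.19, 0.11, 0.24 and 0.29 in the same order. Only Klf2 of these 6 kept its sign. Tbx3 (-0.55 and -0.35), Klf5 (-0.25 and -0.29), Esrrb (-0.15 and -0.18) and Nanog (-0.16 and -0.04) had the same sign in both sets. Without both arrays numbered 4, D1709A, D1709N and E1705K each had all 10 members called, 2 higher and 8 lower. This omission was chosen after the data were seen.

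**Figure D4:**
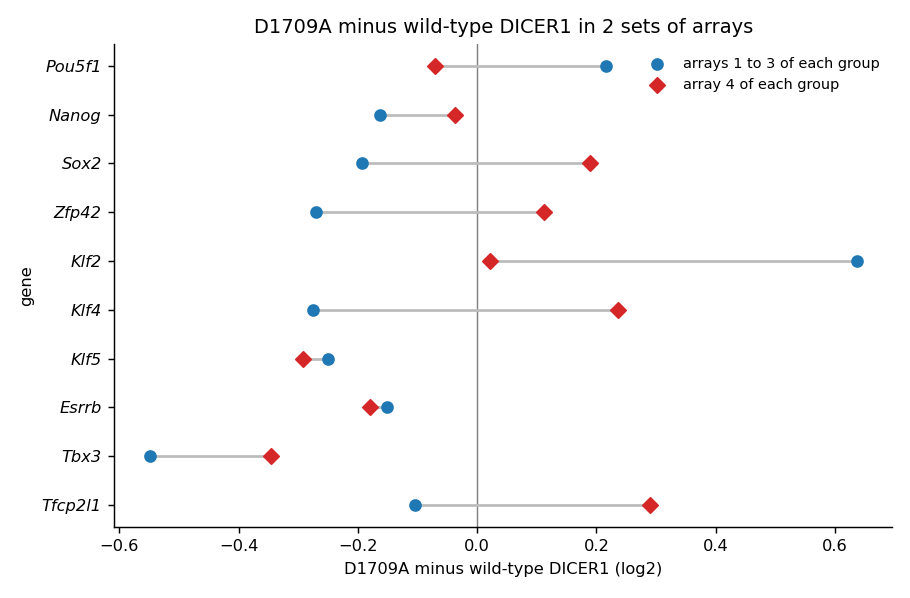
D1709A minus wild-type DICER1 for each factor on the log2 scale, in arrays 1 to 3 of each group (circles, difference of means) and in array 4 of each group (diamonds, 1 array against 1). Pou5f1, Sox2, Zfp42, Klf4 and Tfcp2l1 change sign between the sets, while Klf5, Esrrb and Tbx3 stay lower in D1709A.

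Genes that pass signals to these factors were examined as lists. Of 10 LIF and STAT3 pathway genes, 6 were higher and 3 lower in the Dicer-null line than in the Dicer wild-type line (all tested genes, 30.7% and 27.2%). Stat3, the transcription factor of the pathway, rose by 0.74 and Jak2, its kinase, by 0.82, while Pim1, a target kinase, fell by 1.25. With eGFP, 0 were higher and 8 lower than in the Dicer-null line (all genes, 20.2% and 27.4%), with the shared receptor subunit Il6st lower by 0.71. With wild-type DICER1, 6 were higher and 2 lower than with eGFP (all genes, 30.8% and 28.7%), with Jak2 higher by 0.54 and the phosphatase Ptpn11 by 0.44. In the mutants, 1 was higher and 6 lower than with wild-type DICER1 (all genes, 32.3% and 27.7%), with the LIF receptor gene Lifr lower by 0.32, the inhibitor Socs3 lower by 0.30, and Pim1 higher by 0.38. The median of the list in this comparison was -0.21, beside -0.24 for the members and 0.01 for all genes.

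Of 13 FGF and ERK genes, 11 were tested. With wild-type DICER1, 8 were higher and 2 lower than with eGFP, against 30.8% and 28.7% of all tested genes. The ERK inhibitors Spry4 and Spry2 rose by 1.21 and 1.15, and the receptor gene Fgfr2 by 1.001. Against wild-type DICER1 the mutants had 4 higher and 4 lower (all genes, 32.3% and 27.7%), with Spry4 lower by 0.79 and Spry2 by 0.41. Of 8 WNT and TCF genes, 7 were tested. Tcf7l1, the repressor of Esrrb and Tfcp2l1, was 1.03 higher in the Dicer-null line relative to the Dicer wild-type line. It fell by 0.52 with eGFP relative to the Dicer-null line (adjusted p = 2.73e-07). It was 0.21 higher in the mutants than with wild-type DICER1. Lef1 and the WNT feedback gene Axin2 rose by 1.34 and 0.70 with wild-type DICER1, a comparison with 3 of the 7 higher and 2 lower (all genes, 30.8% and 28.7%). Of 9 BMP genes, 1 was higher and 3 lower with wild-type DICER1 than with eGFP, in that same comparison. Bmp4, the ligand, rose by 1.55 there, and its targets Id1 and Id2 were lower by 0.29 and 0.19 in the mutants than with wild-type DICER1.

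Other genes of the pluripotency network went both ways. Of 26, 25 were tested, and in the mutants 12 were higher and 10 lower than with wild-type DICER1 (all genes, 32.3% and 27.7%). Utf1, a chromatin factor of ES cells, was higher by 0.70, and Tcl1, a cofactor of Akt, and Nr5a2, a nuclear receptor that can drive Pou5f1, were lower by 0.70 and 0.68. With wild-type DICER1 relative to eGFP, 10 were higher and 10 lower (all genes, 30.8% and 28.7%). Dppa3, a maternal and germline factor, rose by 2.48 and Lin28a, an RNA-binding inhibitor of let-7, by 1.65, and Prdm14, a naive-state repressor of FGF signals, fell by 1.16. Among 14 other Klf family genes, 13 were tested, with 4 higher and 4 lower in the mutants than with wild-type DICER1, near the shares of all genes, 32.3% and 27.7%. Klf10 was lower by 0.50 and Klf15 higher by 0.37.

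The genes of the primed epiblast, the later state that naive cells enter on differentiation, rose in the mutants more often than they fell. Of 14, 13 were tested. Against wild-type DICER1, 9 were higher and 2 lower in the mutant mean (all genes, 32.3% and 27.7%). In D1810Y 11 were higher and 0 lower (all genes, 28.5% and 25.2%). In the mutant mean, the de novo DNA methyltransferase gene Dnmt3b rose by 1.11, the zinc-finger gene Sall2 by 1.03 and the N-cadherin gene Cdh2 by 0.95. The list's median was 0.47 in the mutant mean and 0.97 in D1810Y, beside 0.01 and -0.00 for all genes. The rise was not particular to the mutants. In the Dicer-null line, 8 were higher and 1 lower than in the Dicer wild-type line (all genes, 30.7% and 27.2%), with a median of 0.48. With wild-type DICER1, 4 were higher and 5 lower than with eGFP (all genes, 30.8% and 28.7%). In the mutant mean against wild-type DICER1, where these shares were 32.3% and 27.7%, trophoblast markers were higher in 3 of 6 tested and lower in 2, with Ascl2 1.37 higher and Eomes 0.85 lower. Extraembryonic endoderm markers were higher in 1 of 6 tested and lower in 3, with Gata6 0.82 lower, and fibroblast or feeder markers were higher in 0 of 7 and lower in 3. Neuroectoderm markers averaged 7.56 to 7.60 on the D1810Y arrays and 7.14 to 7.50 on the wild-type DICER1 arrays. The part of these other markers in the members' changes was not tested.

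**Figure D5:**
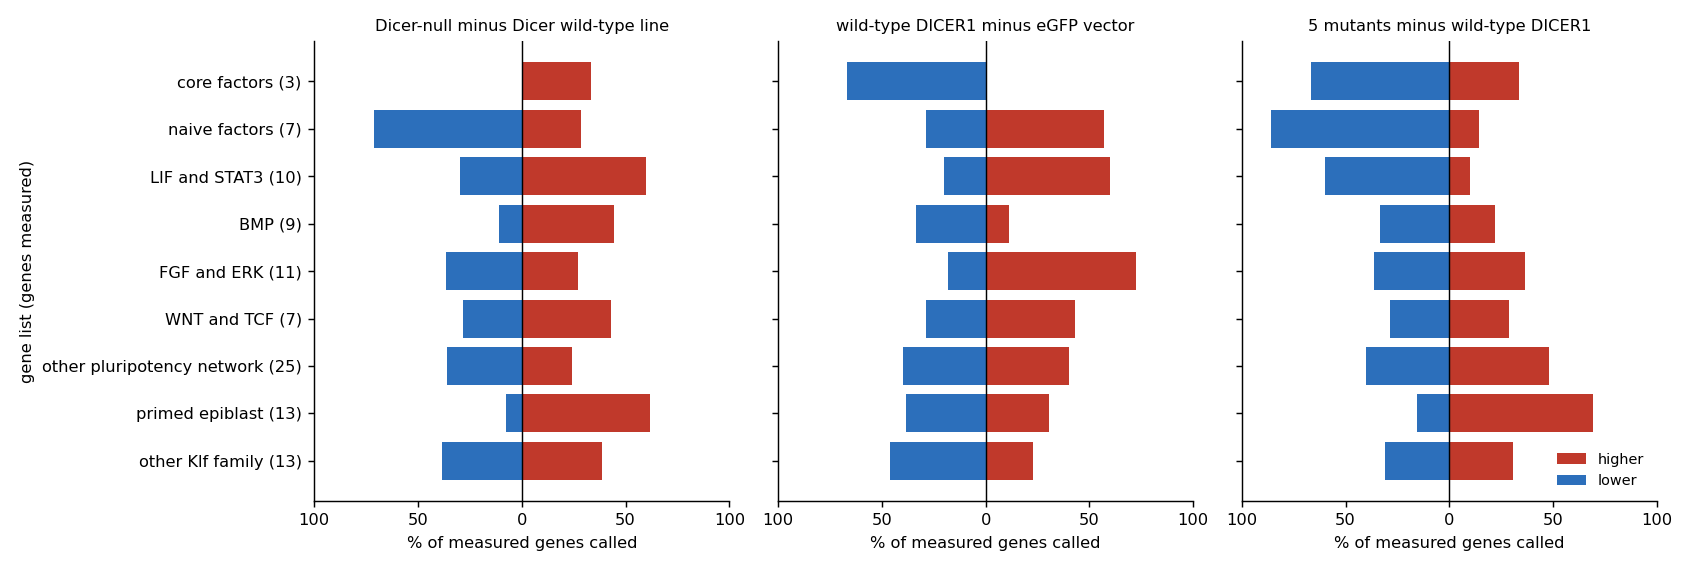
Share of tested genes called higher (red, right) or lower (blue, left) in the core factors, the naive factors and 7 gene lists, in 3 comparisons. The number of genes tested stands beside each list. Of the 7 naive factors, 6 were lower and 1 higher in the mutants than with wild-type DICER1, while 9 of 13 primed epiblast genes were higher.

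Across the 9 group means, which share lines, vectors and the array relations above, Nanog and Esrrb followed each other most closely among the members (r = 0.972). Sox2 followed Klf5 (r = 0.967) and Klf4 (0.952). Pou5f1 ran against Klf4 (-0.872), Klf5 (-0.834) and Sox2 (-0.817). Among 13106 other genes, the profile most like that of Nanog was Map10 (0.982), followed by Mtm1 (0.981) and the LIF receptor gene Lifr (0.974). Mtm1 was also the closest to Esrrb (0.984). For Sox2 the closest were Ly6g6e (0.981), Eml2 (0.980) and the fibronectin gene Fn1 (0.978). Crtac1 was closest to Klf4 (0.993), Prep to Klf2 (0.983), Etfa to Klf5 (0.983), Cd79b to Zfp42 (0.980), Cobl to Tfcp2l1 (0.975), Mfge8 to Tbx3 (0.962) and Alox5ap to Pou5f1 (0.959). With 9 points and so many genes, values of this size describe the order of the groups and nothing more.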

How the data were processed

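Total RNA was labelled with the Ambion WT expression kit and hybridised to 28 arrays, per the labels' protocols. The deposited values are log2 expression per probe set, made by the authors with RMA (background correction, normalisation between arrays and summary of probes) and Partek 6.6, per the submitters' processing notes. The sources used here do not give their settings. Of 35556 probe sets, 21789 had 1 gene symbol, 1621 several and 12146 none. Only the first kind was used, with the highest-mean probe set per symbol. Genes with a mean under the 30th percentile (6.42) were left out, which left 13956.

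A linear model over all arrays was fitted with limma 3.58.1 in R 4.3.3. It had 9 group coefficients, a PGKnvA term and a mean-variance trend, and it was tested on simulated data. Because of the PGKnvA term, wild-type DICER1 entered comparisons with ENvA mutants, eGFP and the Dicer wild-type line through its 4 ENvA arrays. It entered those with D1709N and E1813Q through its 2 PGKnvA arrays. The means of both sets were equal within 7.5e-05, so the term made almost no adjustment. Tests were two-sided, with Benjamini-Hochberg adjustment over all tested genes and calls at adjusted p under 0.05. The number of arrays limits the precision. The members and lists were chosen with earlier results of these data known. The genes named are Dicer1, the members, up to 3 called genes of each list with the largest change in each of 5 main comparisons, and the 3 genes most like each member in the 9 group means. Alternatives changed the filter, probe choice, centring, trend, vector term, weights, arrays used and a replicate block. Figures were drawn with matplotlib 3.10.9.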

Additional observations from a re-analysis of the deposited data

Results flagged for a closer look

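In the 2 groups with 4 or more arrays, 20 sets of values were examined for an array far from the rest, and 3 stood out. Chance flags about 1 in 20 such sets. With wild-type DICER1, Pou5f1 was highest on array 4, at 12.737, and the next array read 12.636. In the same group Tfcp2l1 was lowest on array 4, at 11.829, with the next at 11.966. In D1709A, Sox2 was highest on array 4, at 12.307, with the next at 12.121. All 3 involve the arrays numbered 4, whose deviations mirror each other, so a departure in one group appears with the opposite sign in the other.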

How the results depend on the processing

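Over 110 member changes, 13 alternatives and 28 omissions of 1 array gave 4170 values, of which 4083 kept direction and call, 32 lost the call, 36 gained it, 16 changed sign and 3 moved beyond the spread. Part of this total was fixed in advance. Each member has 1 probe set, so averaging probe sets left its change as it was. A changed filter, or no vector term, altered p-values but left the changes the same or nearly so. Counts of members called stayed within 1.5 times in every comparison and alternative run. With arrays centred on their medians, signs turned for Nanog (0.063) and Sox2 (0.030) between the parental lines, Zfp42 with eGFP (-0.024) and Tfcp2l1 in D1709A (0.024), none of them called; each follows from the shift of the array medians. Between the arrays numbered 4 alone, D1709A differed from wild-type DICER1 by -0.071 in Pou5f1, 0.19 in Sox2, 0.11 in Zfp42, 0.24 in Klf4 and 0.29 in Tfcp2l1, with no test. Over omissions of 1 array, Nanog between the parental lines ranged from -0.047 to 0.00035 and Tfcp2l1 in D1709A from -0.055 to 0.023.

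Replicate numbers are shared across groups, and whether they pair the samples is not known. Over 88 same-numbered pairs the correlation of deviations ran from -1 to 0.684 with a median of -0.02, and 20 exceeded 0.1. The deposited values hold exact relations between arrays, so these correlations cannot show whether samples were paired. A replicate block, fitted without the vector term because both cannot be fitted together, called all 10 members in the mutants against wild-type DICER1 and 7 with wild-type DICER1 against eGFP. It lost 2 calls, Nanog in the latter comparison and Zfp42 with wild-type DICER1 against the Dicer wild-type line, and the test of differences among the mutants called 9 members instead of 8. Signal over background was not given, so levels near the filter are uncertain.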
